A study of Homo sapiens with 8 samples.

Results

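AHNAK and AHNAK2 encode giant scaffold proteins, and ANXA2 and S100A10 encode the subunits of the annexin complex that anchors AHNAK at the cell membrane. The 4 genes were taken by symbol, and all regions of the deposited ribosome profiling (Ribo-seq) count files that carry one of those symbols were used. They occupy 5 of the 20165 regions, and 4 of the 5 have a counted coding sequence. The genes were chosen by known partnership and with their coding footprint fold changes in both comparisons already known, AHNAK2 having been named in each, so their values are a description here and carry no test of their own.

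The series profiled ribosome-protected mRNA fragments (footprints) in 8 libraries of OVCAR3, an established human ovarian cancer cell line. It addressed mono-ADP-ribosylation, the transfer of single ADP-ribose units, of the ribosomal protein RACK1. One experiment compared RACK1-WT with RACK1-Mut cells. In both lines endogenous RACK1 was knocked down by an inducible shRNA while HA-tagged RACK1 was expressed from a second vector, either wild type or mutated at its ADP-ribosylated residues, and both received 1 µg/ml doxycycline for 48 h. The other experiment compared cells given 30 nM control siRNA (siControl) with cells given 30 nM siRNA against OARD1, the gene of the ADP-ribose hydrolase TARG1 (siTARG1), also for 48 h. The siRNA cells are not described as carrying these vectors or receiving doxycycline, so experiment and treatment cannot be told apart between the experiments. Each group has 2 libraries, which the study's methods describe as independent biological samples. The RACK1 lines were selected with antibiotics. The methods list more than 1 siRNA against TARG1 and do not name the one profiled.

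AHNAK is built largely of repeats of one protein module and lies under the plasma membrane, where it is known from membrane repair, cell contacts and calcium signalling. AHNAK2 is its lesser-known relative with repeats of its own. Annexin A2, the product of ANXA2, binds membrane phospholipids when calcium rises. A pair of S100A10 chains joins a pair of annexin A2 chains into a tetramer, which is known for tethering AHNAK to the membrane, for linking membrane to actin and for capturing plasminogen at the cell surface.

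All 4 genes lie on the minus strand of GRCh37. AHNAK lies at chr11:62201014-62323707, and in its main transcript (ENST00000378024) 3 of 5 exons carry coding sequence. A single exon of 17328 nt, at 62284219 to 62301546, holds 98.1% of its coding bases. AHNAK2 lies at chr14:105403581-105444711, and an exon of 16734 nt, at 105404403 to 105421136, holds 96.3% of the coding bases of ENST00000333244. ANXA2 lies at chr15:60639333-60695082 and S100A10 at chr1:151955391-151966335. The coding sequences run to 5890 codons in AHNAK, 5795 in AHNAK2, 339 in ANXA2 and 97 in S100A10.

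The starts of the coding sequences are shown to mark the annotated reading frame in a transcript of each gene. They come from the GENCODE 44 transcripts on GRCh37, 5′ to 3′ with the start codon in capitals. The counted AHNAK region joins 7 transcripts and has 17781 coding nt, against 17673 nt with the stop codon in the transcript shown.
AHNAK: ATGgagaaggaggagacaacccgggagctg
AHNAK2: ATGtgcgactgcttccacatggtgctgccc
ANXA2: ATGtctactgttcacgaaatcctgtgcaag
S100A10: ATGccatctcaaatggaacacgccatggaa

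The giants repeat themselves within 1 exon, and a footprint of 30 bases can then come from several places. The most repeated word of 30 coding bases in each giant is shown because it marks that repeat. An unlike copy is shown too, with its differing base in capitals. It was taken 384 nt after a copy of the word in AHNAK and 495 nt after in AHNAK2, and nearer ones were not sought. In AHNAK the word occurred 9 times, first at coding bases 2608 to 2637 and last from base 14317. The unlike copy starts at base 4123. In AHNAK2 the word occurred 18 times, first at coding bases 2017 to 2046 and last from base 13381, and 11 of the steps between neighbouring copies were 495 nt. Its unlike copy starts at base 3481.
AHNAK word: ggcccagactggcacctgaagatgcccaag
AHNAK unlike copy: ggcccagaTtggcacctgaagatgcccaag
AHNAK2 word: agcaagttcaaaatgcccaagttcaagatg
AHNAK2 unlike copy: agcaGgttcaaaatgcccaagttcaagatg

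Of all 30-base words in the coding sequence, 3678 of 17644 (20.8%) were repeated within AHNAK and 5164 of 17359 (29.7%) within AHNAK2. No word was shared by the giants, and none of their words lay in a transcript of another gene. The shift at which most bases matched was 384 nt in AHNAK, with 52.5% identical, and 495 nt in AHNAK2, with 68.7% identical. AHNAK2 thus had the more regular repeat, and in both genes the ends of the coding sequence were free of repeated words.

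**Figure D1:**
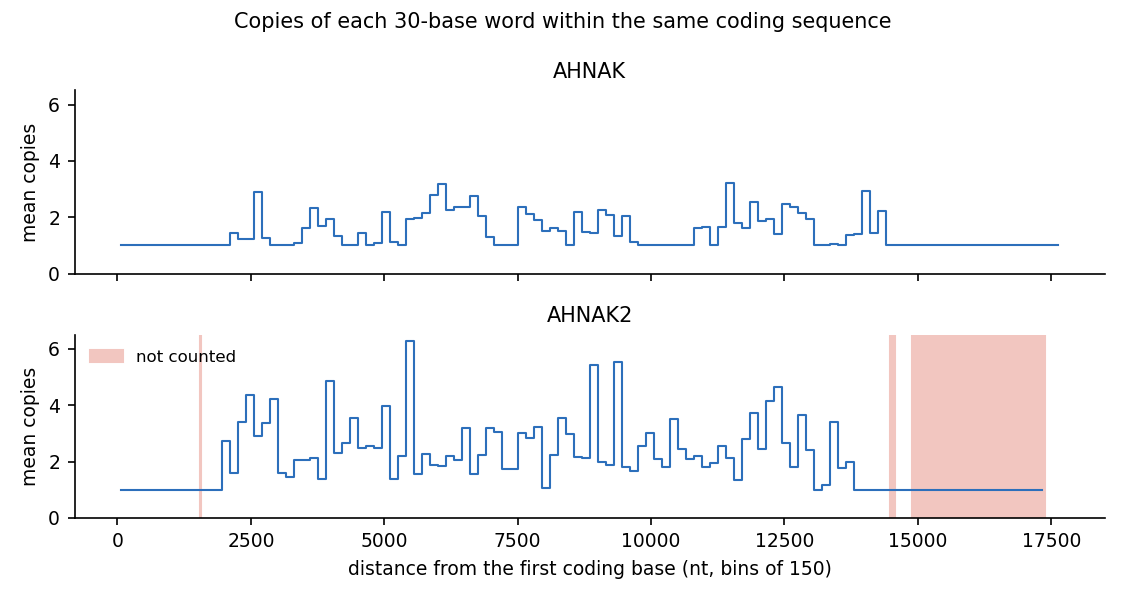
Mean number of copies of each 30-base word within the same coding sequence, in bins of 150 nt along AHNAK and AHNAK2, against the distance from the first coding base in nt. A value of 1 means that a word occurs once. Repeated words fill the middle of both genes, and shading marks the stretches of AHNAK2 that were not counted, the longest of 2494 nt at the 3′ end of the coding sequence.

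Neither small partner repeated a word within its own coding sequence, but they differed in the words shared with other genes. All 265 words of S100A10 were found once among the transcripts. Of the 991 words of ANXA2, 730 (73.7%) also lay in another gene, 715 of them in the pseudogene ANXA2P2, which includes the first 30 coding bases shown. No region of the count files carries an ANXA2 pseudogene symbol. The authors aligned reads to transcripts with many hits allowed, so ANXA2 counts are uncertain wherever a word is shared, and how a giant's repeated reads were spread over its own copies was not resolved.

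The second AHNAK2 region (ENST00000557457) has 64 counted nt, all 3′ UTR, and held 0 footprints in the 8 libraries. Its exons also cover 2623 coding bases of the first region, and the 14762 nt that the authors counted for AHNAK2 equal its coding length without them. The stretches left out are coding bases 1547 to 1570, 14473 to 14577 and 14892 to 17385. All 18 copies of the AHNAK2 word lie in the counted part, where 35.2% of words are repeated. Values per kilobase (kb) below use the counted lengths, 17781 nt for AHNAK, 14762 nt for AHNAK2, 1020 nt for ANXA2 and 294 nt for S100A10.

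The libraries held between 3100947 and 6604190 coding footprints. Exon footprints were 48.57 to 57.21% of alignments in the RACK1 libraries and 27.76 to 41.44% in the siRNA libraries. OARD1 had 5.83 and 6.75 normalized counts in siTARG1 against 121 and 69.1 in siControl, a log2 fold change of -3.94 ± 0.557 (SE, DESeq2 adjusted p = 9.31e-11, n = 2 per group). RACK1 had 17745 and 17274 in RACK1-Mut against 23334 and 23594 in RACK1-WT (log2 fold change -0.42, DESeq2 adjusted p = 1.34e-08), so the RACK1 lines differ in RACK1 footprints too. Of 11 epithelial and ovarian carcinoma markers, 10 have a region and all 10 were above 0 in every library, summing to 7557 to 8697 CPM (coding footprints scaled to the library's total) in siTARG1 and 10997 to 11699 in the other groups. Blood markers summed to at most 0.486 with CD3E and LYZ at 0, endothelial markers to at most 2.85 with CDH5 at 0, fibroblast markers to 26.1 to 42, and muscle markers to 46.5 to 135. Of the 4 muscle markers 2 were above 0 in every library. In siControl ACTC1 had 498 and 437 normalized counts, against 1.76 and 13.1 for DES. ACTC1 words were not matched to other actin genes, so shared reads were not examined. In bulk samples, fewer cells of a type and less RNA per cell cannot be told apart, and with no RNA-seq analysed here a footprint level does not separate mRNA amount from translation.

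The order of the 4 genes per kb was the same in all 8 libraries, with ANXA2 highest, then S100A10, AHNAK and AHNAK2. Levels by library are coding footprints scaled with size factors from all 8 libraries, per kb of counted coding sequence. How many of all genes keep the 4 groups apart in these levels was not counted. Scaled within each comparison, 37.6% of genes tested did not overlap in RACK1-Mut against RACK1-WT. The share was 62.6% in siTARG1 against siControl and 72.3% in RACK1-WT against siControl. Groups that do not overlap are therefore common, and nothing particular to the 4 genes is read from it.

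AHNAK, the scaffold, stood at 355 and 314 in siControl, 429 and 451 in siTARG1, 565 and 477 in RACK1-WT, and 505 and 473 in RACK1-Mut. Its group means were 334.6 ± 28.8, 439.7 ± 15.3, 520.8 ± 62.2 and 489.4 ± 22.5 (SD, n = 2 each). The ranges of RACK1-WT and RACK1-Mut overlapped, and the other groups did not. This was the narrowest span of the 4 genes, with RACK1-WT 1.56 times siControl. AHNAK took 0.13 to 0.232% of all coding footprints of a library.

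AHNAK2 stood at 1.53 and 1.13 in siControl, 4.6 and 8.98 in siTARG1, 54.6 and 54.3 in RACK1-WT, and 32.6 and 28.1 in RACK1-Mut. Its means were 1.328 ± 0.28, 6.789 ± 3.09, 54.46 ± 0.235 and 30.34 ± 3.14 (SD, n = 2 each). No groups overlapped, and RACK1-WT was 41 times siControl. The siControl levels rest on 22 and 12 footprints, with 95% exact Poisson intervals of 13.8 to 33.3 and 6.2 to 21, and the siTARG1 levels on 70 and 101, with intervals of 54.6 to 88.4 and 82.3 to 123. These intervals cover counting error only, and PCR copies are not independent molecules.

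ANXA2, the membrane-binding annexin, stood at 3688 and 3684 in siControl, 2983 and 3264 in siTARG1, 14427 and 13281 in RACK1-WT, and 12393 and 12447 in RACK1-Mut. No groups overlapped, and RACK1-WT was 3.76 times siControl and 4.43 times siTARG1. S100A10, its small partner, stood at 1107 and 1002 in siControl, 2502 and 2650 in siTARG1, 4297 and 3615 in RACK1-WT, and 2991 and 3401 in RACK1-Mut. Its groups did not overlap either, but siTARG1 lay between siControl and RACK1-Mut, while for ANXA2 siTARG1 was the lowest group.

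**Figure D2:**
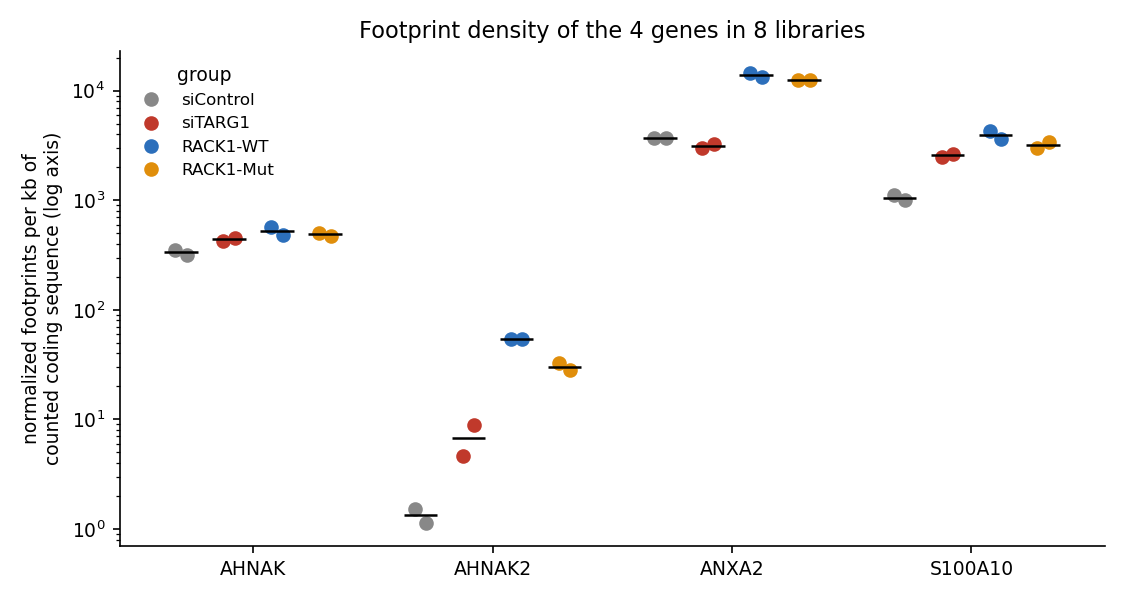
Normalized coding footprints per kb of counted coding sequence, on a log axis, for the 4 genes in 4 groups. Each point is a library and each bar a group mean (n = 2). AHNAK2 runs from 1.13 in a siControl library to 54.6 in a RACK1-WT library, while AHNAK stays between 314 and 565.

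Because both subunits share a tetramer, their footprints were also compared within each library, where scaling cancels. The level of ANXA2 over that of S100A10 per kb was 3.33 and 3.68 in siControl, 3.36 and 3.67 in RACK1-WT, and 4.14 and 3.66 in RACK1-Mut. In siTARG1 it was 1.19 and 1.23, below every other library. The group means were 3.5 ± 0.247 in siControl, 1.21 ± 0.0283 in siTARG1, 3.51 ± 0.219 in RACK1-WT and 3.9 ± 0.339 in RACK1-Mut (SD, n = 2 each).

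The giants parted further. The level of AHNAK over that of AHNAK2 per kb was 233 and 278 in siControl, 93.2 and 50.2 in siTARG1, 10.3 and 8.78 in RACK1-WT, and 15.5 and 16.8 in RACK1-Mut. No groups overlapped in this ratio, and how often that holds for other pairs of genes was not counted. The level of AHNAK over that of S100A10 was highest in siControl, at 0.321 and 0.314, and lowest in RACK1-WT, at 0.131 and 0.132.

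**Figure D3:**
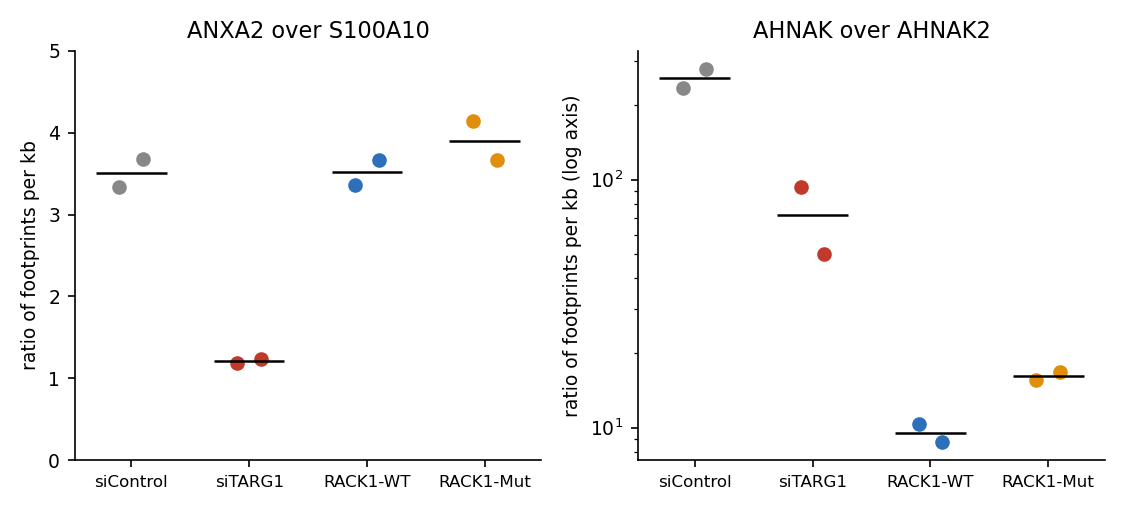
Ratio of footprints per kb within each library, for ANXA2 over S100A10 on a linear axis and for AHNAK over AHNAK2 on a log axis. Points are libraries and bars group means (n = 2). The ANXA2 ratio is 1.19 and 1.23 in siTARG1 and at least 3.33 in every other library.

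Among the annexins, ANXA2 had the highest level per kb of 12 regions in every group, followed by ANXA1 and ANXA5. In siControl ANXA2 stood at 3686 and ANXA1 at 2211, and in RACK1-WT at 13854 and 2877. S100A10 was the fifth of 18 S100 regions in siControl and the third in the other groups, each time behind S100A6, a calcium-binding dimer, and S100A11. Of the 449 coding sequences of at least 6000 nt, AHNAK had the sixth highest mean level over the 8 libraries, at 446 per kb, after AGRN (1161), FLNA (930), FASN (564), LAMA5 (549) and SNRNP200 (523). AHNAK2 was the 203rd, at 23.2 per kb.

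Nearly all footprints of the 4 genes lay in coding sequence. Over the 8 libraries, AHNAK had 68492 exon footprints, of which 99.67% were coding, 0.321% were in the 5′ UTR and 7 in the 3′ UTR. All 3448 AHNAK2 footprints were coding, and the 0 in its 5′ UTR allow a share of up to 0.087%. The coding share was 99.57% for ANXA2 and 98.29% for S100A10, whose 5′ UTR held 1.28%. Over all regions these shares were 93.78% coding and 4.06% 5′ UTR. The AHNAK2 region has 120 counted nt of 5′ UTR and no counted 3′ UTR beside 14762 coding nt, so its share is largely set by what was counted.

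The first comparison asked which footprints differ when RACK1 cannot be ADP-ribosylated at these residues. Normalized counts here are scaled within the 4 libraries of the comparison, and fold changes are fitted by DESeq2 as RACK1-Mut over RACK1-WT. AHNAK2 was the member that was called lower, while AHNAK overlapped between groups.

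AHNAK had 10639 and 9999 normalized counts in RACK1-Mut against 11857 and 10025 in RACK1-WT. The groups overlapped, and the log2 fold change was -0.08 ± 0.0821 (SE, n = 2 per group). Without the first RACK1-WT library it was 0.04, so its sign rests on that library. AHNAK2 had 569 and 493 in RACK1-Mut against 952 and 948 in RACK1-WT. Both RACK1-Mut libraries were lower, with a log2 fold change of -0.84 ± 0.114, or 1.79 times more in RACK1-WT, the 225th lowest of 12520 genes. In order of fold change among 353 long coding sequences tested, AHNAK2 was the 348th, between MUC4 (-0.83) and FCGBP (-0.87), and AHNAK the 248th.

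ANXA2 had 14969 and 15080 in RACK1-Mut against 17376 and 16019 in RACK1-WT, and S100A10 had 1041 and 1188 against 1492 and 1257. Neither gene overlapped between groups, with log2 fold changes of -0.15 ± 0.0659 and -0.30 ± 0.108 (SE). The latter ran from -0.42 to -0.17 when single libraries were left out. Of the 4 members, 1 (AHNAK2) was called at an adjusted p under 0.05, beside 0.0799% of all genes tested, and 3 of 4 did not overlap, beside 37.6%. In a fit of all 8 libraries 0 of 4 were called by DESeq2. AHNAK and ANXA2 had an adjusted p there, while AHNAK2 and S100A10 received none. The AHNAK2 log2 fold change in that fit was -0.84 ± 0.33 (SE). AHNAK2 was named from this comparison, so nothing is read from these counts.

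The second comparison asked which footprints differ when the hydrolase that removes ADP-ribose is depleted. Normalized counts and fold changes are siTARG1 over siControl. AHNAK, AHNAK2 and S100A10 were higher and ANXA2 lower.

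AHNAK had 6541 and 6868 normalized counts in siTARG1 against 5418 and 4792 in siControl, a log2 fold change of 0.39 ± 0.0732 (SE, n = 2 per group). AHNAK2 had 58.3 and 114 against 19.3 and 14.3, a log2 fold change of 2.33 ± 0.469, which was the 75th highest of 12056 genes. It was higher in both siTARG1 libraries. The siTARG1 libraries lay far apart, and the value was 1.79 without siTARG1 replicate 2 and 2.75 without siTARG1 replicate 1. Among 351 long coding sequences tested, AHNAK2 was the fifth highest, between PRUNE2 (2.46) and FAT3 (2.02), and AHNAK the 79th.

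S100A10 had 631 and 668 in siTARG1 against 279 and 253 in siControl, 2.43 times as many, with a log2 fold change of 1.28 ± 0.144 (SE). Its libraries lay close together within each group. ANXA2, the other subunit, had 2609 and 2854 in siTARG1 against 3229 and 3223 in siControl, a log2 fold change of -0.24 ± 0.0757. The ANXA2 value lay between the 25th and 75th percentiles of all genes, at -0.32 and 0.34. The S100A10 value lay above the 95th percentile, at 1.08. The subunits thus differed in opposite directions, ANXA2 by an amount common among all genes. Their ratio within libraries comes from the same counts and is not separate evidence of this.

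All 4 members were called, beside 16.4% of all genes tested, 3 of them higher in siTARG1, beside 7.18%, and 1 lower, beside 9.19%. None overlapped between groups, beside 62.6% of genes. ANXA2 was not called when the replicate number entered the fit as a block. The summed epithelial markers were lower in both siTARG1 libraries than in siControl, with 4 of 10 called lower and 2 higher, and their part in the result was not tested.

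**Figure D4:**
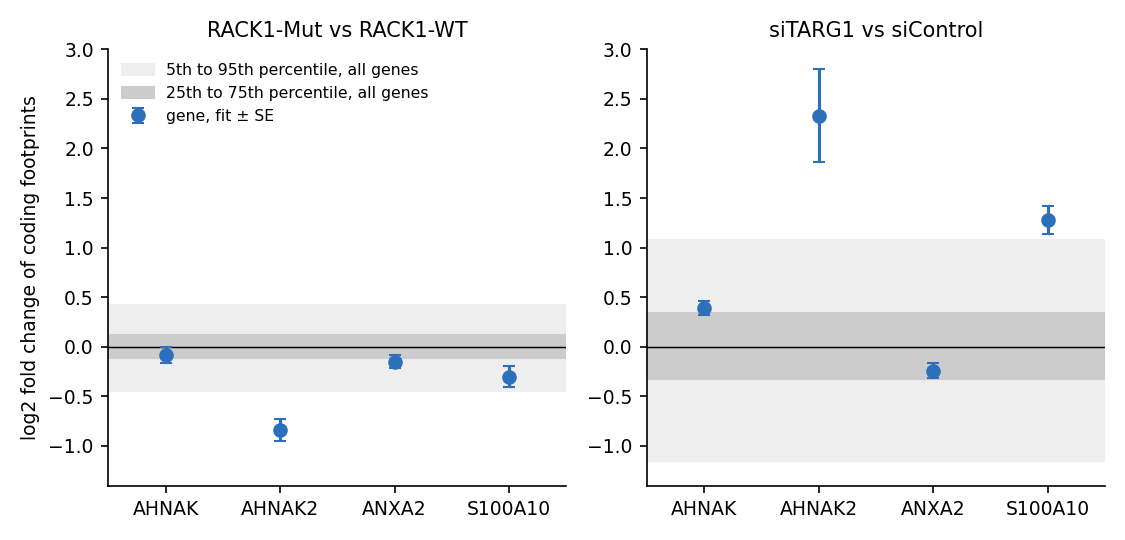
Log2 fold change of coding footprints with its standard error for the 4 genes in both comparisons (n = 2 per group), over the 5th to 95th and 25th to 75th percentiles of all genes tested. AHNAK2 lies outside the wider band in both comparisons, at -0.84 and 2.33, and S100A10 only in siTARG1, at 1.28.

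The control group of each experiment was then set against the other, reusing the libraries of 1 group from each comparison, and experiment and condition cannot be told apart here. In a fit of RACK1-WT against siControl the log2 difference was 0.63 ± 0.0917 for AHNAK, 5.33 ± 0.28 for AHNAK2, 1.91 ± 0.0729 for ANXA2 and 1.90 ± 0.133 for S100A10 (SE, n = 2 per group). The annexin and its S100 partner thus differed by nearly the same amount. All 4 were called, beside 30.3% of genes, and none overlapped, beside 72.3%. Of the 10 epithelial and ovarian carcinoma markers 6 were called higher and 3 lower in the same fit, with MSLN at 2.87, KRT7 at 1.79 and MUC16 at -1.33, while their sum was 10997 to 11118 CPM in RACK1-WT and 11311 to 11699 in siControl. The muscle marker gene ACTC1 was lower (-1.18), and the part of these markers in the result was not tested. Of 8 other annexins tested, 1 was called higher and 1 lower, and their differences ran from -1.63 to 0.38. Of 12 other S100 genes tested, 8 were called higher and 0 lower by DESeq2, with 9 at an unadjusted p under 0.05 and 10 called by edgeR, in either direction. Over all genes the differences spread further upward, from -1.19 at the 5th percentile to 2.03 at the 95th. The share of all genes called in each direction was not counted in this fit, and no excess is read from these lists.

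Known relatives and partners of the 4 genes were then read in 5 lists that leave the members out. They are the other annexins, the other S100 proteins, membrane repair and AHNAK partners, the plasminogen system with other S100A10 clients, and cortical actin with its membrane linkers. In RACK1-Mut against RACK1-WT, 86 of their genes were tested and 0 were called by DESeq2, with 4 at an unadjusted p under 0.05 and 0 called by edgeR. The list medians lay between -0.10 and -0.02, beside a median near 0 over all genes.

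In siTARG1 against siControl, 32 of 82 tested partner genes (39%) were called, 17 higher and 15 lower. Of all genes 16.4% were called, 7.18% higher and 9.19% lower. The lists were not matched to all genes by count, which affects how readily a gene is called. No excess is read from these shares. Among the other annexins, ANXA3 fell (365 and 395 against 730 and 757, log2 fold change -0.97 ± 0.129, SE, DESeq2 adjusted p = 3.88e-12, n = 2). ANXA1, an annexin of the inflammatory response, fell too (-0.47, DESeq2 adjusted p = 6.28e-07), and ANXA7 rose (0.34, DESeq2 adjusted p = 0.0284). The other 5 of 8 were not called, and the list's median was -0.17.

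Among the other S100 proteins, 3 of 9 rose and 1 fell, with a median of 0.16. S100A6 rose from 2018 and 1919 in siControl to 3392 and 3438 (log2 fold change 0.79 ± 0.0747, SE, DESeq2 adjusted p = 6.46e-24, n = 2). S100A14 rose by 0.78 (DESeq2 adjusted p = 0.0193) and S100A11 fell by 0.25 (DESeq2 adjusted p = 0.0467). S100A4, named after its values were seen because its counts are low, rose by 1.28 (DESeq2 adjusted p = 0.00408).

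In the membrane repair list 6 of 27 genes rose and 3 fell, with a median of 0.14. CAPNS1, the small subunit of the calpain proteases that act in membrane repair, had 698 and 719 normalized counts in siTARG1 against 2515 in each siControl library, a log2 fold change of -1.83 ± 0.0883 (SE, DESeq2 adjusted p = 5.73e-92, n = 2). MYOF, which encodes the ferlin myoferlin, fell (-0.53, DESeq2 adjusted p = 0.000213), as did CHMP2A, an ESCRT-III subunit (-0.47, DESeq2 adjusted p = 0.000133). PDCD6IP, which encodes the ESCRT adaptor ALIX, rose by 0.45 (DESeq2 adjusted p = 0.00721). The other 5 that rose fell outside the naming rule and are named after their values were seen. The caveola genes EHD2, CAV2 and CAVIN1 rose by 1.67, 1.59 and 1.47 (DESeq2 adjusted p = 3.27e-05, 0.000829 and 0.00114), from at most 44.8 normalized counts in a siControl library. CHMP2B, another ESCRT-III subunit, rose by 1.01 (DESeq2 adjusted p = 0.0258) and CAPN1, a catalytic calpain subunit, by 0.43 (DESeq2 adjusted p = 0.000591).

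In the plasminogen list 2 of 10 genes rose and 1 fell, with a median of 0.29. The cathepsin gene CTSB fell (-0.53 ± 0.0871, SE, DESeq2 adjusted p = 3.75e-08, n = 2). The genes that rose, PLAU, which encodes the plasminogen activator urokinase (1.34, DESeq2 adjusted p = 0.00581), and SERPINE2, which encodes an inhibitor of such proteases (1.92, DESeq2 adjusted p = 0.0362), are named after their values were seen and have low counts. In the actin list 5 of 28 rose and 8 fell, with a median of -0.05. CD44, a surface receptor linked to actin through ERM proteins, fell (-1.31, DESeq2 adjusted p = 3.07e-08), as did the cytoplasmic actin gene ACTG1 (-0.58, DESeq2 adjusted p = 2.09e-20). MSN, the ERM protein moesin, rose by 0.65 (DESeq2 adjusted p = 3.61e-07) and ARPC1B, an Arp2/3 subunit, by 0.56 (DESeq2 adjusted p = 5.98e-06).

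**Figure D5:**
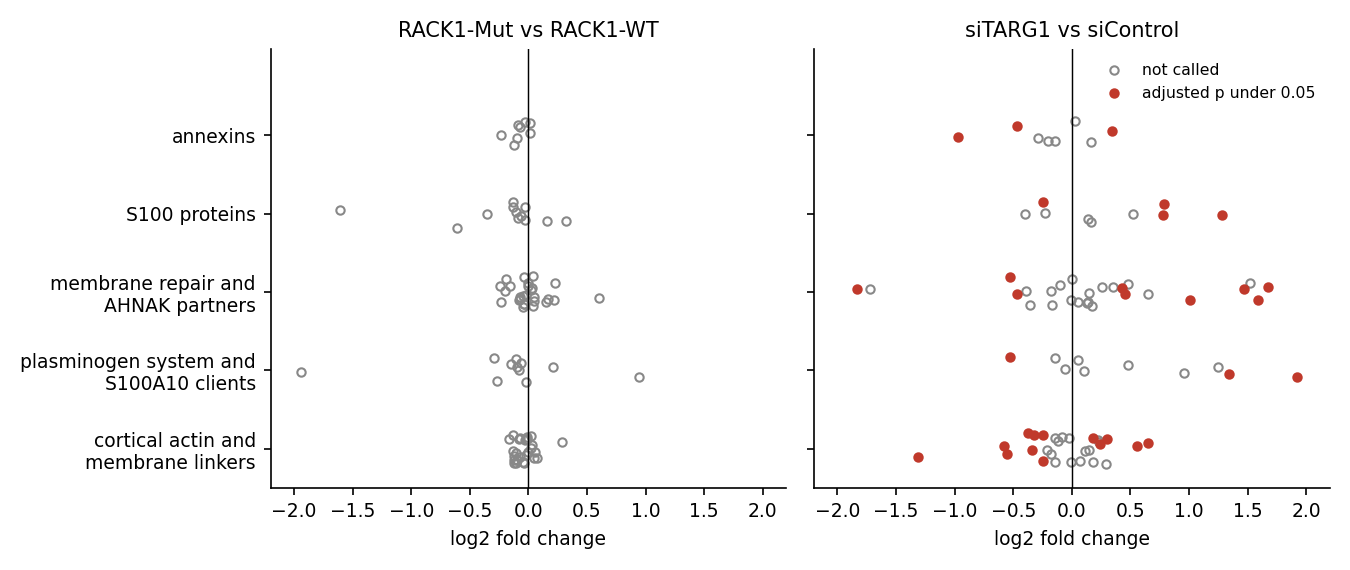
Log2 fold changes of the tested genes of 5 partner lists, members left out, in both comparisons, with each point a gene. In RACK1-Mut against RACK1-WT 0 of 86 genes were called by DESeq2, and in siTARG1 against siControl 32 of 82 were called (filled), on both sides of 0.

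The genes whose footprints ran most like each member were found by the Euclidean distance of log2(normalized count + 1), centred within each experiment, over the 8 libraries and among 6718 genes. Nearest to AHNAK were NUP153 (distance 0.10), MYO9A (0.10), a region joining TSFM with another gene (0.12), CDC23 (0.13) and MARK2 (0.13), against a median distance of 0.58. Nearest to ANXA2 were CAPZB (0.07), IQGAP2 (0.07), CCT3 (0.07), PKM (0.08) and CCT7 (0.08), against a median of 0.49. Both have many near neighbours.

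The other members had larger nearest and median distances, a measure that grows with the size of a gene's own group differences. Nearest to S100A10 were USP37 (0.22), WDHD1 (0.26), SGPP1 (0.32), CLDN1 (0.34) and C6orf132 (0.34), against a median of 1.38. Nearest to AHNAK2 were L1CAM (0.84), an unnamed region with transcript ENST00000264193 (0.89), LAMB3 (0.96), MUC15 (1.12) and PDHX (1.13), against a median of 2.52. S100A10 was the 25th nearest gene to AHNAK2, at 1.31. Seen from S100A10, the same distance lies close to its median of 1.38. The pair is thus near only in the order taken from AHNAK2. Ranks were taken from 1 gene of each pair. The other pairs of members lay much further down the order of the 6718 genes. From AHNAK, ANXA2 was the 4125th nearest, S100A10 the 5689th and AHNAK2 the 6656th. From AHNAK2, ANXA2 was the 4389th nearest, and from ANXA2, S100A10 was the 6594th.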

How the data were processed

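The authors made the deposited whole-number footprint counts with Plastid on hg19 (GRCh37), per the file headers, after discarding contaminant reads with Bowtie 1.1.2 and aligning the rest with TopHat2 2.1.1. Collapsing of molecular identifiers is not stated. The headers place a footprint from its 5′ end and the methods from its 3′ end, which was not resolved. The RPKM values the authors deposited served only to work back to the alignments of a library. Symbols came from GENCODE 44 lifted to GRCh37.

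Groups and replicate numbers came from the sample titles. Coding counts were fitted per comparison, over its 4 libraries and genes whose counts summed to at least 10. They were fitted with DESeq2 1.42.0 in R 4.3.3, as in the study's methods, and called at an adjusted p under 0.05 over all genes tested (Benjamini-Hochberg). Levels used size factors from 8 libraries. Words of 30 bases were matched to all GENCODE 44 transcripts. Alternatives were edgeR 4.0.16, TMM scaling, other count filters, exon counts, an 8-library fit, a replicate block and leaving out libraries.

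The members and lists were chosen with earlier results of these data known. Named partner genes were up to 4 per list with the greatest fold change among those called, averaging at least 100 normalized counts and not overlapping between groups. Exceptions are stated. Protein sequences were not used here.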

Additional observations from a re-analysis of the deposited data

How the results depend on the processing

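All 68 fold changes and level ratios of the members kept their direction under the other tests, scalings, filters and counted parts, where AHNAK2 ran from -0.84 to -0.83 in RACK1-Mut against RACK1-WT and from 2.26 to 2.33 in siTARG1 against siControl. Over all genes, the 10 called in RACK1-Mut became 30 with edgeR and 6 with the replicate block (5 shared), and the 1974 called in siTARG1 became 3470 with edgeR and 1125 with the block (1120 shared). The partner genes called in siTARG1 fell in number from 32 to 20 with the block, which also took the call of ANXA2. The cause was not tested. The numbers share no stated culture or day, and the deviations of same-numbered libraries correlated by 0.0832 and 0.0307, so they were not taken as pairs. In the fit of 8 libraries AHNAK2 and S100A10 had no adjusted p in RACK1-Mut, and the SE of AHNAK2 was 0.33 in place of 0.114. AHNAK2 was called under each other setting listed.

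Without single libraries, the RACK1-Mut fold changes ran from -0.20 to 0.04 for AHNAK, from -0.95 to -0.74 for AHNAK2, from -0.21 to -0.09 for ANXA2 and from -0.42 to -0.17 for S100A10. The value of 0.04 for AHNAK, without RACK1-WT replicate 1, turned its direction. In siTARG1 they ran from 0.30 to 0.48, from 1.79 to 2.75, from -0.30 to -0.18 and from 1.21 to 1.35 in the same order. A lone library was assumed to vary like the other group. Depth limits AHNAK2 most, with 12 footprints in a siControl library.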
